A study of Mus musculus with 4 samples.

Results

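The mammalian apparent LTR retrotransposons (MaLRs) were examined in RNA-seq libraries of wild-type (WT) and Pim3-/- mouse embryonic stem cells (ESCs). In the table of counts per transposable element (TE) subfamily, every row whose name began with MTA to MTE, ORR1, MLT1, MST or THE1 was taken, which gave 106 of the 1072 rows. They were 19 MT rows, 29 ORR1 rows and 58 MLT1 rows, and 0 rows were named MST or THE1. By name, 12 rows (MTA and ORR1A) were grouped as young, 36 (MTB to MTE and ORR1B to ORR1G) as middle and 58 (MLT1) as old. Of the 106 rows, 52 were for long terminal repeats (LTRs) and 54, ending in -int, for the internal sequence between them.

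All cells were E14 ESCs, a mouse line with the strain given as 12910la, grown in serum with LIF on gelatin. The WT group had 2 libraries from separate biological samples. The Pim3-/- group had 2 libraries, each from a different clone, in which the kinase gene Pim3 had been cut with CRISPR/Cas9. Which clone gave which library was not given in the sources used here, and with 1 library from each clone the spread between clones and the spread between cultures cannot be told apart. The Pim3 counts were 4392 and 4953 in the WT libraries and 4970 and 4804 in those labelled Pim3-/-, giving a log2 fold change of -0.27 (SE 0.17, adjusted p = 0.257). These are counts over the whole gene, which do not read the edited bases, so they do not check the genotype labels.

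MaLRs are LTR retrotransposons of the ERVL class that code for no proteins of their own and are copied with the enzymes of other elements. A full copy has an LTR at each end, which holds the promoter, around an internal sequence, while most copies in the genome are solitary LTRs left by recombination. MLT1 elements are old and shared by mammals, whereas the MT and ORR1 branches are found in rodents and hold copies that are still intact. MT LTRs are known as promoters in growing oocytes, where an MTC copy starts a short form of Dicer1, and MT and ORR1 LTRs also start transcripts in early embryos. The similarly named MT2 elements are not MaLRs. Among them, MT2_Mm is the LTR of the endogenous retrovirus MuERVL (the MERVL rows), which marks 2-cell (2C)-like cells. Within ORR1 and MLT1 the letters run broadly from younger to older subfamilies. The counts are not divided by the length that each subfamily covers, so levels are compared between libraries and not between rows.

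The libraries held 546500 and 680595 TE counts in WT ESCs and 821065 and 808450 in Pim3-/- ESCs. TE rows took up 2.44% ± 0.196 of all counts in the gene and TE tables together in WT ESCs and 3.50% ± 0.0549 in Pim3-/- ESCs (SD, n = 2 in each group). Values below are therefore relative to the TE counts of the same library, as counts per 1000000 TE counts (CPM) after TMM scaling within the TE table, unless another scale is named. The limit that a count of 0 allows, taken as 3 counts, stood between 3.40 and 5.88 CPM in the 4 libraries and covers counting error only. In bulk RNA, more cells that express an element and more RNA per cell cannot be told apart.

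As a family, MaLRs stayed near the middle of the TE table. Of the 83 MaLR rows with enough counts to test, 42 were higher and 41 lower in Pim3-/- ESCs, with a median log2 fold change of 0.01. Over all 828 TE rows tested the median was also 0.01. Only 8 MaLR rows passed an adjusted p of 0.05 in edgeR's quasi-likelihood test, 4 in each direction, where 10.1% of all TE rows tested were called, 3.74% higher and 6.40% lower. The MaLR shares were 4.82% in each direction. A change of at least 2-fold as well was met by 2 MaLR rows, both higher, against 4.35% of all TE rows called with that limit, 1.93% higher and 2.42% lower. None was lower by that limit in edgeR or in the Wald test of DESeq2, while 7 MaLR rows were lower in edgeR at an unadjusted p under 0.05 without it. Without WT replicate 1 or 2 edgeR called 0 of 870 TE rows in the whole table, with 103 and 127 at an unadjusted p under 0.05, so those fits do not tell the 8 calls apart from other rows. The 8 rows kept their direction in both, with ORR1A0, for example, at -0.81 and -1.02. The other 23 rows, all of them internal rows and 22 of them MLT1, had 13 counts or fewer in any library and were not tested.

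The scale decides how this reads. MaLR rows took 9.53% ± 0.12 of TE counts in WT ESCs and 10.2% ± 0.286 in Pim3-/- ESCs (SD, n = 2), a ratio of 1.07. Per 1000000 counts of both tables, however, they went from 2328 ± 157.5 to 3582 ± 156.2, a ratio of 1.54, since the TE share itself was larger in both Pim3-/- libraries. Scaling the TE counts by the gene table moved the median of all TE rows by 0.26 and that of the MaLR rows by 0.27 on the log2 scale, so that 18 MaLR rows were called higher and 2 lower, or 11 and 2 with the spread of the TE fit kept. Of all TE rows, 21.1% were then called higher and 4.23% lower (MaLR 21.7% and 2.41%), or 11.2% and 3.02% (MaLR 13.3% and 2.41%). Scaling by library totals moved both medians by 0.18 and gave 11 higher and 3 lower. There 12.2% of all TE rows were called higher and 4.35% lower (MaLR 13.3% and 3.61%). In these settings the MaLR shares called higher lay near those of the whole table.

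**Figure D1:**
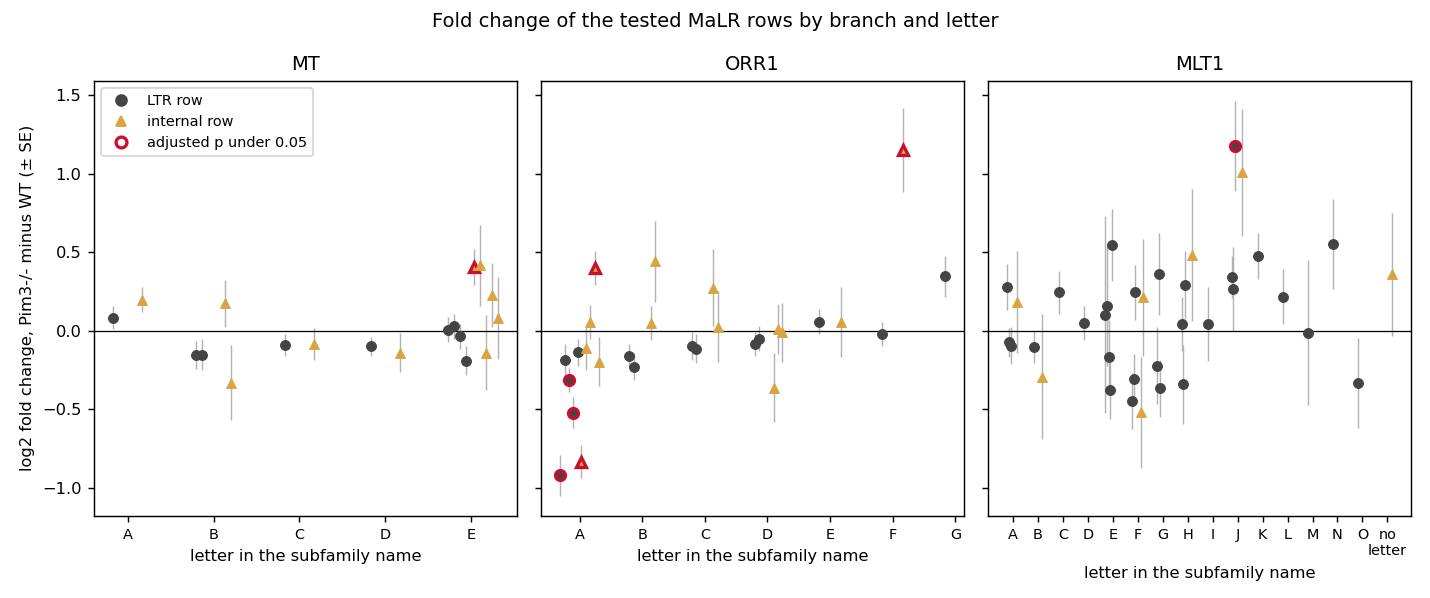
Log2 fold change (Pim3-/- minus WT, with its standard error) of each tested MaLR row, set out by the letter in the subfamily name in the MT, ORR1 and MLT1 branches, with circles for LTR rows, triangles for internal rows and red outlines for an adjusted p under 0.05. The points of the MT branch lie close to 0, the ORR1 LTR circles run from -0.92 at A to 0.35 at G, and the MLT1 points lie on both sides of 0 with longer error bars.

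The plot of fold changes by letter shows where the 8 called rows lay. There were 5 among the 12 young rows, all of them ORR1A, 2 among the 35 middle rows tested and 1 among the 36 old rows tested. ORR1A0, ORR1A0-int, ORR1A3 and ORR1A2 fell, and ORR1A3-int, ORR1F-int, MTE-int and MLT1J2 rose.

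ORR1A0 was the row that fell most. Its LTR had 2822 and 2493 CPM in WT ESCs and 1588 and 1217 CPM in Pim3-/- ESCs. Both Pim3-/- libraries were below both WT libraries, and the raw counts (1439 and 1601 against 1356 and 1074) were also lower although the Pim3-/- libraries held more TE counts. The log2 fold change was -0.92 (SE 0.13, adjusted p = 0.00354). Its internal sequence, ORR1A0-int, had 2685 and 2214 CPM in WT ESCs and 1355 and 1393 CPM in Pim3-/- ESCs. The groups again did not overlap, and the log2 fold change was -0.83 (SE 0.10, adjusted p = 5.07e-04). Scaled by the gene table, both parts of ORR1A0 were still lower, by -0.66 for the LTR and -0.56 for the internal sequence on the log2 scale.

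ORR1A3 gave opposite results for its 2 parts. The LTR row had 1506 and 1411 CPM in WT ESCs and 1004 and 1027 CPM in Pim3-/- ESCs, giving a log2 fold change of -0.52 (SE 0.10, adjusted p = 0.00853). The internal row had 1020 and 898 CPM in WT ESCs and 1278 and 1251 CPM in Pim3-/- ESCs, giving a log2 fold change of 0.40 (SE 0.11, adjusted p = 0.0366). Neither row overlapped between the groups, so the same subfamily was lower by its LTR and higher by its internal sequence in both clones. With the gene table's scaling and the spread of the TE fit, the fall of the LTR shrank to -0.25 (adjusted p = 0.178). The call of the internal row was lost with DESeq2's size factors (adjusted p = 0.0528) and with the Wald test of DESeq2 (adjusted p = 0.206).

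ORR1A2 had the most counts of the ORR1 rows. It had 6711 and 5925 CPM in WT ESCs and 4995 and 5172 CPM in Pim3-/- ESCs, with no overlap and a log2 fold change of -0.31 (SE 0.08, adjusted p = 0.0261). This fall was relative to other TEs, since it was -0.13 with library totals (adjusted p = 0.28) and -0.04 with the gene table's scaling (adjusted p = 0.797), and the Wald test did not call it (adjusted p = 0.151). ORR1A1 and ORR1A4 had log2 fold changes of -0.19 (adjusted p = 0.252) and -0.14 (adjusted p = 0.311). All 5 ORR1A LTR rows thus had a value below 0, of which 3 passed the test, and on the gene table's scale 3 of the 5 were below 0. ORR1A1-int, ORR1A2-int and ORR1A4-int did not pass the test, with log2 fold changes of -0.11 (adjusted p = 0.625), 0.05 (adjusted p = 0.793) and -0.20 (adjusted p = 0.457).

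Neither row of MTA, the youngest MT subfamily, passed the test relative to other TEs. MTA_Mm, its LTR row, had 5246 and 5026 CPM in WT ESCs and 5693 and 5176 CPM in Pim3-/- ESCs. The groups overlapped, and the log2 fold change was 0.08 (SE 0.07, adjusted p = 0.513). MTA_Mm-int had 3793 and 3413 CPM in WT ESCs and 4255 and 4008 CPM in Pim3-/- ESCs. Here the Pim3-/- libraries were both the higher ones, but the log2 fold change of 0.20 (SE 0.08) missed the threshold (adjusted p = 0.145). Both rows were called higher on other scales, MTA_Mm at 0.26 with library totals (adjusted p = 0.0206) and 0.35 with the gene table's scaling (adjusted p = 0.0334 with the spread of the TE fit), and MTA_Mm-int at 0.38 (adjusted p = 0.00601) and 0.47 (adjusted p = 0.0157).

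**Figure D2:**
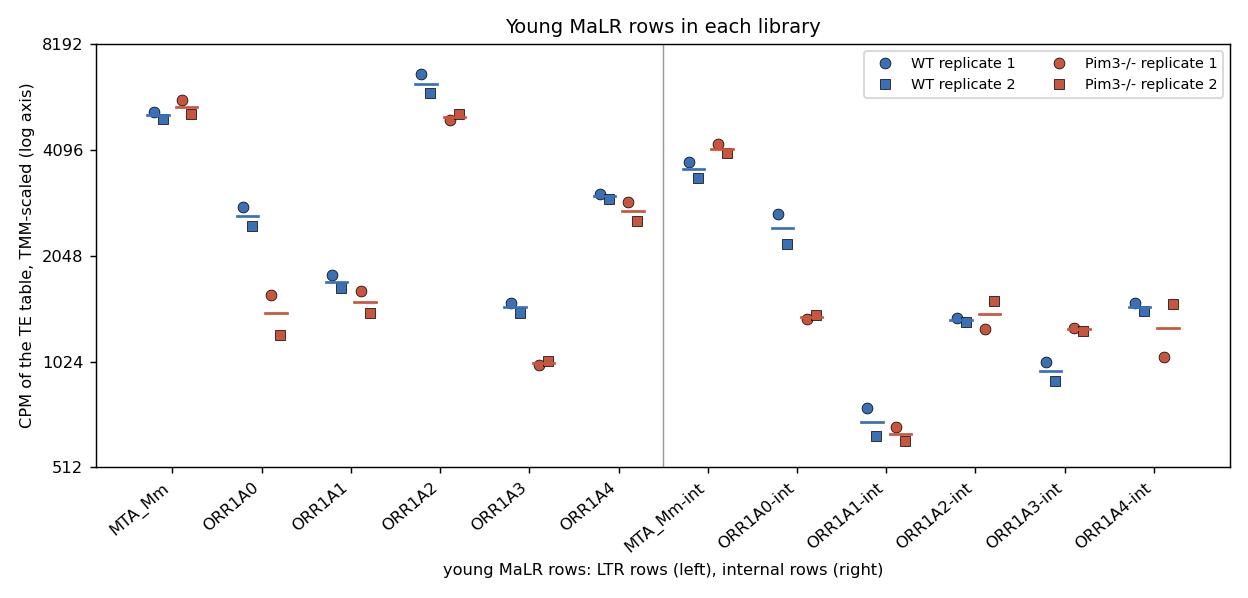
CPM of the TE table on a log axis for the 12 young MaLR rows, LTR rows on the left and internal rows on the right, with 1 point for each of the 4 libraries and a line at each group mean. ORR1A0, ORR1A2, ORR1A3 and ORR1A0-int sit lower in both Pim3-/- libraries, whereas ORR1A3-int sits higher in both.

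The share of the ORR1A0 LTR within its own subfamily group followed the same direction without any scaling between libraries. For each count on the ORR1A1 to ORR1A4 LTR rows there were 0.216 and 0.208 counts on ORR1A0 in WT ESCs, and 0.151 and 0.12 in Pim3-/- ESCs. MTA counts per ORR1A count, LTR and internal rows together, were 0.389 and 0.403 in WT ESCs and 0.56 and 0.52 in Pim3-/- ESCs. On the log2 scale the MTA to ORR1A ratio was -1.34 ± 0.04 in WT ESCs and -0.89 ± 0.08 in Pim3-/- ESCs (SD, n = 2), a difference of 0.45 with no overlap. As sums over members, these ratios were given no test.

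Along the ORR1 LTR rows, the log2 fold change followed the letter in the name. The medians were -0.31 for A (5 rows), -0.19 for B (2 rows), -0.11 for C (2 rows) and -0.07 for D (2 rows), and E, F and G, with 1 row each, had 0.06, -0.02 and 0.35. Spearman's rho between letter order and log2 fold change was 0.92 over 14 rows and 0.93 without ORR1A0, while rho between mean CPM and log2 fold change was 0.02. It was the same with the other scalings, which move all rows together, and between 0.82 and 0.93 when 1 library was left out. The order was noticed after the values were seen, the rows share the same 4 libraries and related sequences, and no p is given. At one end of this order ORR1A0, ORR1A2 and ORR1A3 passed the test, and at the other end ORR1G, with counts of 244 and 331 in WT ESCs and 546 and 552 in Pim3-/- ESCs, did not (adjusted p = 0.119).

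The other sets of rows gave lower values of rho. It was 0.70 for the 6 tested MLT1 internal rows with a letter, 0.22 for the 14 tested ORR1 internal rows, 0.03 for the 9 MT LTR rows, 0.36 for the 10 MT internal rows and 0.22 for the 29 MLT1 LTR rows. The MT LTR rows lay in a narrow band between -0.19 and 0.08. MTD, the MaLR row with the most counts, had 5078 and 6540 counts in WT ESCs and 8249 and 8057 in Pim3-/- ESCs, giving a log2 fold change of -0.10 (SE 0.06, adjusted p = 0.311). MTC had -0.09 (adjusted p = 0.424) and ORR1D1 -0.08 (adjusted p = 0.527), and these 3 values turned to between 0.08 and 0.18 with library totals or the gene table's scaling.

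Internal rows mostly held more counts relative to their LTR rows in Pim3-/- ESCs. Of the 28 MaLR subfamilies whose LTR and internal rows both had enough counts to test, the internal-to-LTR ratio was higher on average in Pim3-/- ESCs in 21, and in 12 both Pim3-/- libraries were above both WT libraries. That was 42.9%, the share also found over all 42 such tested pairs of the TE table, so it was not particular to MaLRs. The median log2 difference was 0.15 for MaLR pairs and 0.26 for the 14 other pairs. In the ORR1 branch 12 of 13 pairs were higher, in MT 6 of 9 and in MLT1 3 of 6. Over all 42 pairs 32 were higher, and of the 14 pairs outside MaLRs 11 were. Summed over the family, internal counts per LTR count were 0.2 and 0.193 in WT ESCs and 0.202 and 0.219 in Pim3-/- ESCs.

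Among the young pairs, ORR1A3 changed most, from 0.677 and 0.637 internal counts per LTR count in WT ESCs to 1.27 and 1.22 in Pim3-/- ESCs. ORR1A2 went from 0.203 and 0.224 to 0.254 and 0.294, and MTA_Mm from 0.723 and 0.679 to 0.747 and 0.774, both without overlap. In ORR1A0, where both parts fell, the ratio was 0.951 and 0.888 in WT ESCs and 0.853 and 1.15 in Pim3-/- ESCs, so the clones lay on either side of the WT libraries. The ratios of ORR1A1 and ORR1A4 overlapped as well.

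**Figure D3:**
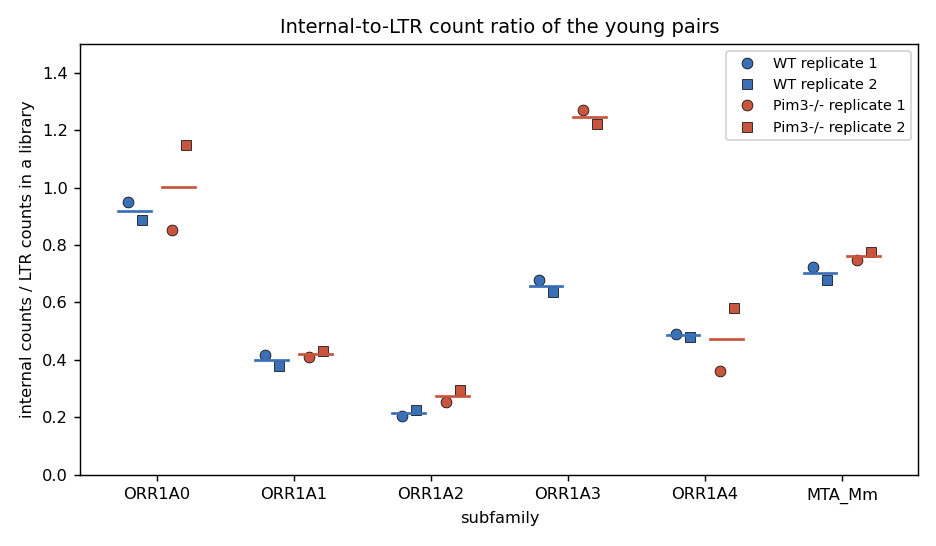
Internal counts divided by LTR counts in each library for the 6 young subfamilies, with a line at each group mean. ORR1A3 stands out, with 0.677 and 0.637 in WT ESCs and 1.27 and 1.22 in Pim3-/- ESCs, and ORR1A0, ORR1A1 and ORR1A4 overlap between groups.

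The called rows outside the young class were all higher in Pim3-/- ESCs. ORR1F-int had 67 and 107 counts in WT ESCs and 210 and 369 in Pim3-/- ESCs, or 131 and 167 against 246 and 418 CPM. The groups did not overlap, but Pim3-/- replicate 2 was well above replicate 1, and the log2 fold change of 1.15 (SE 0.27, adjusted p = 0.0303) was 0.71 without it. The LTR row of the same subfamily, ORR1F, had a log2 fold change of -0.02. MLT1J2 had 40 and 67 counts in WT ESCs and 132 and 231 in Pim3-/- ESCs, or 78.5 and 104 against 155 and 262 CPM. It too was highest in Pim3-/- replicate 2, with a log2 fold change of 1.18 (SE 0.29, adjusted p = 0.0303) that was 0.74 without it.

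MTE-int rose less and more evenly. It had 661 and 655 CPM in WT ESCs and 850 and 893 CPM in Pim3-/- ESCs, giving a log2 fold change of 0.40 (SE 0.12, adjusted p = 0.0466) close to the threshold. Its call was lost with DESeq2's size factors (adjusted p = 0.0546), without the count filter (adjusted p = 0.0535) and with the Wald test (adjusted p = 0.239). The highest and lowest values of the MT branch were those of MTE2a-int at 0.42 (adjusted p = 0.311) and MTB_Mm-int at -0.33 (adjusted p = 0.413), neither past the threshold.

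More old MLT1 rows had values above 0 than below, but MLT1J2 was the 1 row that passed the test. Of the 36 tested, 22 were higher and 14 lower, with a median log2 fold change of 0.13 and a range from -0.52 for MLT1F-int (adjusted p = 0.364) to 1.18 for MLT1J2. No MLT1 row was called lower by edgeR or by the Wald test, and 5 were higher and 1 lower at an unadjusted p under 0.05. With library totals 27 of the 36 were above 0 and 5 were called higher (13.9%), and with the gene table's scaling 28 and 9 (25%), or 5 (13.9%) with the spread of the TE fit kept. The whole table moved as well. Of all 828 TE rows tested, 572 were above 0 and 12.2% called higher with library totals. With the gene table's scaling 631 were above 0 and 21.1% called higher, or 11.2% with the spread of the TE fit kept. These rows were thin, with a median of 99.25 counts per library and a median difference of 0.22 between the WT libraries on the log2 scale, against 0.06 for the middle rows. The MLT1 rows with the most counts did not pass the test either, with -0.07 for MLT1A0 (adjusted p = 0.648), -0.10 for MLT1B (adjusted p = 0.543) and 0.24 for MLT1C (adjusted p = 0.279).

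Within MLT1, each of the 4 tested rows of the letter J had a value above 0. MLT1J, MLT1J1 and MLT1J-int, named after their values were seen, had log2 fold changes of 0.34, 0.26 and 1.01 beside the 1.18 of MLT1J2, with adjusted p of 0.139, 0.556 and 0.142. In the E letter, MLT1E3 and MLT1E2, also named after their values were seen, had 0.55 and -0.38 (adjusted p = 0.158 and 0.204).

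Young and old MaLRs were then set against each other within each library, where no scaling factor enters. There were 2.81 and 2.67 young counts for each MLT1 count in WT ESCs, and 2.39 and 2.29 in Pim3-/- ESCs. Both Pim3-/- libraries were below both WT libraries, and the log2 ratio was 1.45 ± 0.05 in WT ESCs and 1.23 ± 0.04 in Pim3-/- ESCs (SD, n = 2), a difference of -0.23. The ORR1A rows alone gave 2.02 and 1.9 against 1.53 and 1.51, a log2 difference of -0.37. The MTA rows alone gave 0.787 and 0.767 against 0.859 and 0.785, a difference of 0.08 in the other direction, with the 0.785 of Pim3-/- replicate 2 just under the 0.787 of WT replicate 1. Of the young rows, ORR1A thus had the lower ratio to MLT1 and MTA did not. The MLT1 counts in the ratio moved as well. As a share of TE counts, MLT1 rows held 1.055% ± 0.023 in WT ESCs and 1.241% ± 0.052 in Pim3-/- ESCs (SD, n = 2). Young rows held 2.892% ± 0.168 and 2.906% ± 0.037, and ORR1A rows 2.072% ± 0.135 and 1.887% ± 0.059. Which class the lower ratio is placed in therefore depends on the scale.

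**Figure D4:**
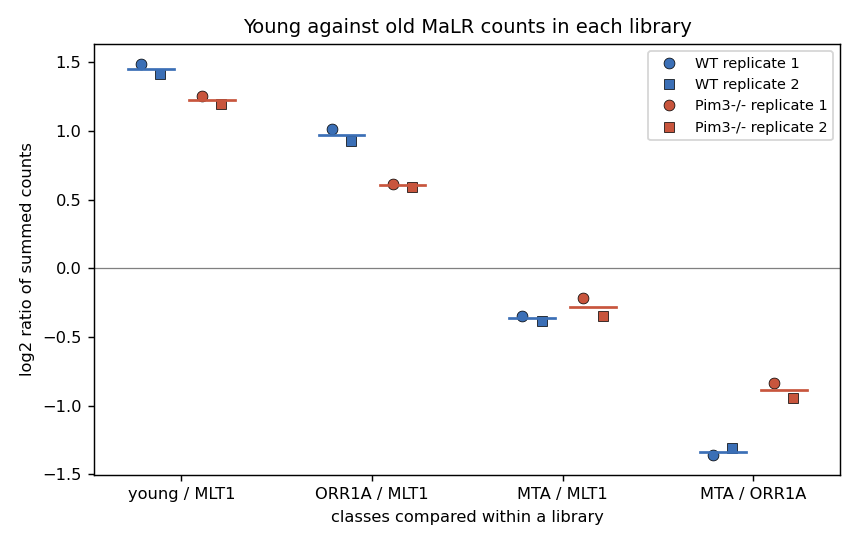
Log2 ratio of summed counts within each library for young over MLT1 rows, ORR1A over MLT1, MTA over MLT1 and MTA over ORR1A, with 1 point for each of the 4 libraries and a line at each group mean. The ratios with ORR1A separate the groups, in opposite directions, and MTA over MLT1 overlaps.

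As shares, young rows held 31.3% and 29.4% of MaLR counts in WT ESCs and 28.7% and 28.1% in Pim3-/- ESCs, and MLT1 rows 11.1% and 11% against 12% and 12.2%. Counted per 1000000 counts of both tables, all classes were higher in Pim3-/- ESCs, by a ratio of 1.44 for young, 1.56 for middle and 1.69 for old rows. ORR1A itself went from 505.1 ± 7.67 to 661 ± 31.0 on that scale (SD, n = 2) and MTA from 200.1 ± 7.96 to 356.6 ± 2.27. As a sum, ORR1A rows were thus lower relative to other TEs and higher on that scale, which applies no TMM scaling. With the gene table's TMM scaling the sum was not taken.

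Elements that share part of their name with MaLRs were set beside them. MERVL-int, the internal sequence of MuERVL, had 2220 and 2466 CPM in WT ESCs and 10390 and 7016 CPM in Pim3-/- ESCs, giving a log2 fold change of 1.89 (SE 0.25, adjusted p = 0.0498). MT2_Mm, its LTR, had a log2 fold change of 1.69 (SE 0.47) that missed the threshold (adjusted p = 0.192) with the clones at 7760 and 3927 CPM, and passed it without robust estimation (adjusted p = 0.00607). The MERVL-int call was lost without the count filter (adjusted p = 0.065) and held with library totals (adjusted p = 0.0206), where MT2_Mm did not pass (adjusted p = 0.142). The Wald test of DESeq2 called both MERVL-int (adjusted p = 1.45e-23) and MT2_Mm (adjusted p = 0.016). None of the 83 tested MaLR rows had a log2 fold change as large as those of MERVL-int and MT2_Mm. Of the older MT2 rows, MT2B1 rose by 0.44 (adjusted p = 0.0205), and MT2C_Mm, MT2B2, MT2A and MT2B had 0.32, 0.17, -0.10 and -0.14 without passing the test. Of the 10 MLT2 rows, LTRs of older ERVL elements, 9 were higher with a median of 0.28, and edgeR called 0 of them, as did the Wald test, with 2 at an unadjusted p under 0.05 in edgeR.

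Genes tied to these elements were counted on the gene table, where 17.7% of 18444 genes were called higher and 16.2% lower. Among 28 genes for repressors of ERVL and MaLR elements, 3 rose and 9 fell at an adjusted p under 0.05, or 10.7% and 32.1%. Those that rose were the corepressor genes Rcor1 (log2 fold change 0.97) and Rcor2 (0.75) and Wiz (0.56), a partner of the H3K9 methyltransferases. Dnmt3b, a DNA methyltransferase gene, fell by 1.30, the histone deacetylase gene Hdac1 by 0.98 and Chaf1b, of the chromatin assembly factor CAF-1, by 0.92. These directions are relative to the gene table's TMM scale, and with library totals 8 repressor genes (28.6%) were called higher and 1 (3.57%) lower, where 36.3% of all genes were called higher and 6.13% lower.

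Of 17 oocyte genes, 7 had enough counts to test. Ooep, of the maternal subcortical complex, was the 1 gene called, and fell by 1.40 (adjusted p = 0.00471). No oocyte gene was called higher by edgeR on the gene table's TMM scale or by the Wald test, with 1 at an unadjusted p under 0.05 in edgeR. With library totals 2 were called higher, or 28.6% of those tested, where 36.3% of all genes were. Dicer1, whose oocyte form starts in an MTC element, had 69.68 and 74.77 CPM in WT ESCs and 90.53 and 85.63 CPM in Pim3-/- ESCs, counted over the whole gene, giving a log2 fold change of 0.29 (adjusted p = 0.2). With library totals Dicer1 was among the genes called higher, at 0.74 (adjusted p = 0.0115). Of 18 genes listed for the 2C-like state, 16 rose, led by Zscan4b (3.92), Zscan4e (3.87) and Zscan4f (3.63). These Zscan4 values were enlarged by Pim3-/- replicate 1, and without it they were 2.85, 2.71 and 2.41. Zscan4e had 23.02 CPM there and 6.78 CPM in replicate 2, against 0.63 and 1.37 CPM in WT ESCs. The Zscan4 genes are near-identical copies whose reads may have been divided among them. Eif1ad, the 1 listed gene called lower, fell by 0.95 and had 103.6 and 98.19 CPM in WT ESCs. The 18 listed genes together had 135.8 and 126.7 CPM there. Most of the WT level of the list was thus Eif1ad, and its fall is not read as that of a 2C marker. It was not called with library totals (-0.49, adjusted p = 0.092).

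Markers of other cell types moved with the groups as well. All 7 tested of 8 primitive endoderm markers rose, and their summed level was 14.86 and 22.1 CPM in WT ESCs and 161.1 and 153.3 CPM in Pim3-/- ESCs, with Foxa2 at 0 in both WT libraries. The 8 ESC markers summed to 9336 and 8388 CPM in WT ESCs and 5466 and 5095 CPM in Pim3-/- ESCs, where Pou5f1, Dppa5a and Nanog fell and Klf4 rose. Most of the WT sum was Dppa5a (4397 and 3526 CPM) and Pou5f1 (2353 and 2135 CPM), so it does not stand for all 8. Of the 8 markers, 3 had a log2 fold change above 0 and 5 below. With library totals Dppa5a (adjusted p = 0.0575) and Nanog (adjusted p = 0.0943) were not called and Sox2 was called higher (0.83, adjusted p = 0.0186). Of 8 trophoblast markers 2 of the 6 tested rose, Eomes and Gata3, within summed levels of 138.3 and 136.4 CPM in WT ESCs and 109.1 and 137.8 CPM in Pim3-/- ESCs. Fibroblast markers summed to between 22.94 and 29.34 CPM in the 4 libraries, with 1 of the 3 tested called higher, Pdgfra, which is also 1 of the 7 primitive endoderm markers counted above. The part of these markers in the MaLR values was not tested.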

How the data were processed

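RNA-seq of WT (n = 2) and Pim3-/- (n = 2) ESCs was analysed from 2 tables of raw counts deposited by the authors, per gene and per TE subfamily. The submitters' processing notes name Trim Galore, STAR, featureCounts and GRCm38, whereas the study's methods name Cutadapt, Hisat2, mm10 and RepeatMasker. Strand setting and treatment of reads that map to several places, which decide how counts are divided among related subfamilies, were not given in the sources used here.

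Groups were compared with edgeR 4.0.16 (R 4.3.3), using filterByExpr (minimum count 10, minimum total 15), TMM scaling within each table and a robust quasi-likelihood test, two-sided, with Benjamini-Hochberg adjustment over all 828 TE rows or 18444 genes tested. DESeq2 1.42.0 gave the Wald test. The fits were tested on simulated data. Standard errors and p-values cover the spread between libraries within each group of these 4 libraries, moderated with the spread of other rows. The main TE fit had 2 residual and a median of 9.66 prior degrees of freedom a row. Sums and ratios of rows were given no test, and an exact permutation test of 2 against 2 libraries cannot go below p = 0.333. The text names all MTA and ORR1A rows, the called rows, the 5 MaLR and 3 MLT1 rows with the highest CPM, the extremes of each branch, MERVL-int and MT2 rows, and at most 3 genes a list and direction. ORR1G, MLT1E2, MLT1E3, MLT1J, MLT1J1, MLT1J-int and MLT2E lie outside these rules and were picked after their values were seen. The members and lists were chosen with earlier results of these data known. Figures were drawn with matplotlib 3.10.9.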

Additional observations from a re-analysis of the deposited data

How the results depend on the processing

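MaLR rows called higher and lower numbered 4 and 4. The higher calls were 2 with DESeq2's size factors, with the Wald test and without robust estimation (the latter added after the data were seen), 11 with library totals, and 18 with the gene table's scaling or 11 with the spread of the TE fit kept. Over all TE rows, in the same order, the shares called higher were 3.14%, 1.27%, 3.38%, 12.2%, 21.1% and 11.2%. The lower calls of MaLR rows were 2 with both gene-table settings. Of all TE rows, 4.23% and 3.02% were called lower there, against 6.40% in the main fit. Calls in all were 8, and 14 with library totals, 20 and 13 with the gene-table settings and 5 with the Wald test. Without Pim3-/- replicate 1 or 2, a larger share of all TE rows was called in each direction than in the main fit. The ranges of MaLR calls that follow, from fits with 1 library in a group, therefore tell nothing about MaLRs alone. Leaving out 1 library gave 0 to 6 higher, 0 to 8 lower, 0 to 12 in all and 0 to 4 at 2-fold. Without either WT library edgeR called 0 of 870 TE rows, although 103 and 127 had an unadjusted p under 0.05. Those fits had 1 WT library and little information on the spread, and the 8 called rows kept their direction in them. The highest adjusted p over the alternatives, those fits included, was between 0.234 and 0.797 for the 8 called rows.

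On the log2 scale, values turned positive with library totals and the gene table's scaling for MLT1A0 (0.11 and 0.20), MLT1B (0.082 and 0.17), MTC (0.093 and 0.18), MTD (0.082 and 0.17), ORR1A1-int (0.070 and 0.16), ORR1A4 (0.044 and 0.13), ORR1D1 (0.10 and 0.18), MT2A (0.087 and 0.17) and MT2B (0.039 and 0.12), and with the latter alone for ORR1A1 (0.080) and ORR1A4-int (0.080). None of these passed the test at first. Without 1 library the sign turned within the ranges of ORR1A1-int (-0.25 to 0.036), MT2A (-0.21 to 0.021), ORR1A2-int (-0.084 to 0.17), ORR1A4-int (-0.47 to 0.022) and MT2B2 (-0.020 to 0.34).

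The young-to-old difference of -0.23 was -0.28 with LTR rows only, -0.37 with ORR1A rows, 0.079 with MTA rows, -0.15 with all MT and ORR1 rows and -0.29 from row medians. The MaLR share differed by 0.125 percentage points when taken of both tables. For the gene lists, fits without 1 library have 1 library in a group. The share of all genes called also moved widely between these fits, in both directions. The list ranges without 1 library therefore tell nothing about the lists alone. Repressor genes called were 8 higher and 1 lower with library totals and 0 to 7 higher and 1 to 15 lower without 1 library. Oocyte genes called higher were 2 with library totals and 0 to 2 without 1 library, and lower 1 to 2. The 2C genes called higher were 8 to 17 without 1 library, and called lower 0 with library totals and 0 to 1 without 1 library.

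Replicate numbers did not pair the samples (the correlation of deviations was 0.0158), and with a replicate block 4 MaLR rows were called higher and 4 lower. Prior degrees of freedom were infinite in that fit, with the gene table's scaling and without a Pim3-/- library, so their counts of calls are not on the same footing. With 2 libraries a group and few counts on most MLT1 rows, smaller changes there were not detectable at this depth.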

Other observations

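A pair of internal rows, MT-int and MLT-int, carried no subfamily letter in their names and stood outside the name rule. MT-int had 77 and 117 counts in WT ESCs and 201 and 167 in Pim3-/- ESCs, giving a log2 fold change of 0.34 (SE 0.20, adjusted p = 0.287). MLT-int had 143 and 144 counts in WT ESCs and 153 and 167 in Pim3-/- ESCs, giving a log2 fold change of -0.45 (SE 0.19, adjusted p = 0.155). Among the MLT2 rows, MLT2E had 5 counts in each WT library and 34 and 18 in the Pim3-/- libraries, with a log2 fold change of 1.77 (SE 0.53, adjusted p = 0.0574). It was named after its values were seen.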
